A study of Mus musculus with 2 samples.

Results

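The testis m6A maps contained positions that their lists repeated on several identical lines, and these repeated positions are described here. They were found by counting the lines of each list per chromosome, start and strand, and a position counts as repeated where at least 1 list holds it on 2 or more lines. There were 830 such positions among the 12516 positions found in either replicate, and the other 11686 stood on a single line in every list that held them. The positions were thus chosen by their line numbers, which are given as a description and without a test. Where 1 list is described, repeated and single-line refer to the line number in that list alone. The single-line positions of replicate 1 thus include 85 that replicate 2 repeated, and those of replicate 2 include 90 that replicate 1 repeated.

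N6-methyladenosine (m6A) is the most abundant internal mark of mammalian messenger RNA. It is laid down during transcription by a methyltransferase complex whose catalytic subunit is METTL3, mostly at adenosines of a short consensus motif and often near stop codons and in long exons. YTH-domain proteins bind the mark and change the splicing, export, translation or decay of the RNA. In the male germ line METTL3 is needed for spermatogonial differentiation and the progress of meiosis. miCLIP crosslinks an m6A antibody to RNA fragments, and reverse transcription across the adduct mutates or stops, which places the methylated base.

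The samples were 2 miCLIP libraries made from control mouse testis mRNA, 12 days post-partum. The labels name the B6D2F1, DBA2 and C57BL6 strains for the study as a whole and give no genotype for the controls. They number the libraries as replicates 1 and 2 of 1 group and do not say whether these came from separate animals, so the spread between them may be technical. The lists hold no expression values, so the labelled tissue could not be checked against marker genes. Replicate 1 held 7019 positions on 7549 lines and replicate 2 held 7182 positions on 7697 lines, each position an interval of 5 nt on mm9. The lists carry no read count or score for a position, so the depth behind it is unknown. No gene or sequence was assigned to any position, because the gene and sequence tables at hand describe another build.

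Repeated positions made up a small share of each list, of nearly the same size. In replicate 1, 482 of 7019 positions were repeated, or 6.87% (95% Wilson interval 6.30 to 7.48%), and in replicate 2 the count was 465 of 7182, or 6.47% (5.93 to 7.07%). Most stood just inside the minimum, with 442 positions on 2 lines in replicate 1 and 426 in replicate 2, against 6537 and 6717 just outside it on 1 line. The number with 3 lines was 34 and 31, with 4 lines 4 and 5, and with 5 lines, the highest number, 2 and 3. The repeated positions took up 1012 lines of replicate 1, which is 13.4% of that list, and 980 lines of replicate 2, which is 12.7%. Every surplus line, 530 in replicate 1 and 515 in replicate 2, came directly after another line of the same position. A list kept in order of position would show this by construction, so it does not tell what the lines stand for. Both strands held repeated positions at like rates: in replicate 1 they were 7.28% of plus-strand positions (6.47 to 8.18%) and 6.44% of minus-strand positions (5.67 to 7.31%). In replicate 2 the order was the other way round, with 6.10% on the plus strand (5.38 to 6.91%) and 6.88% on the minus strand (6.09 to 7.78%). All intervals treat positions as independent and cover counting error only.

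Line number was then compared between the lists. The first counts cover the 830 positions, which either list could choose. The later shares take the positions from one list and read the line number in the other, which had not chosen them. Of the 830 repeated positions, 117 were repeated in both lists, 175 were repeated in one list and on a single line in the other, and 538 were in 1 list only. The 175 divide into 90 repeated in replicate 1 and 85 repeated in replicate 2. The 538 divide into 275 listed by replicate 1 alone and 263 listed by replicate 2 alone, so 64.8% of the repeated positions had no counterpart at the same base. Over all positions this share was higher, at 86.5% (10831 of 12516). A position in both lists had 2 chances to be among the 830, which by itself lowers their share. Chosen by replicate 1 alone, 57.1% of its repeated positions were absent from replicate 2, against 76.0% of all its positions. Chosen by replicate 2 alone, the shares absent from replicate 1 were 56.6% and 76.5%. The largest cell of the 117 was that of 2 lines in each list, with 81 positions. In all, 90 of the 117 had the same line number in both lists, 23 differed by 1 line and 4 by 2 lines. Replicate 1 had more lines at 14 of them and replicate 2 at 13.

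**Figure D1:**
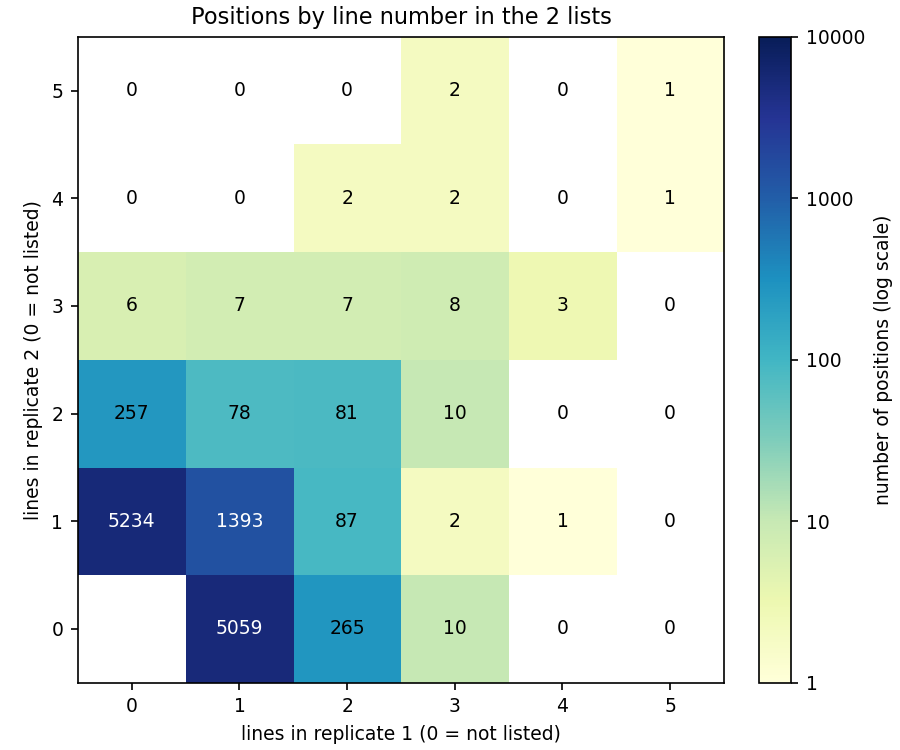
Number of positions for each combination of line number in replicate 1 (horizontal axis) and replicate 2 (vertical axis), where 0 means not listed and the colour is on a log scale. Among positions repeated in both lists, the cell of 2 lines in each held 81 of 117, and the row and column of 0 hold the 538 repeated positions that 1 list lacks.

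A position on more lines in one list was on 2 or more lines in the other list far more often. Over all positions of replicate 1, 2.88% were repeated in replicate 2, and over all positions of replicate 2, 2.88% were repeated in replicate 1. Against that background, positions on 1 line in replicate 1 were repeated in replicate 2 in 1.30% of cases (1.05 to 1.60%). The share was 20.4% for positions on 2 lines (16.9 to 24.4%) and 67.5% for positions on 3 or more (52.0 to 79.9%, 27 of 40). Read the other way, from replicate 2 to replicate 1, the shares were 1.34% (1.09 to 1.64%), 21.4% (17.7 to 25.5%) and 66.7% (51.0 to 79.4%, 26 of 39). The intervals of the 3 classes did not overlap in either direction. The same 117 positions enter both directions, so these are not independent results.

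Part of that gradient was a matter of being listed at all. The share of positions listed in the other replicate was 24.0% over all positions of replicate 1 and 23.5% over all of replicate 2, and 207 of 482 repeated positions of replicate 1 (42.9%, 38.6 to 47.4%) and 202 of 465 of replicate 2 (43.4%, 39.0 to 48.0%) were listed. Among positions that the other replicate did list, repetition there still followed the line number. From replicate 1 it went from 5.75% of 1478 single-line positions (4.67 to 7.06%) to 50.8% of 177 positions on 2 lines (43.5 to 58.1%) and 90% of 30 positions on 3 or more (74.4 to 96.5%). From replicate 2 the shares were 6.07% of 1483 (4.96 to 7.40%), 53.8% of 169 (46.3 to 61.2%) and 78.8% of 33 (62.2 to 89.3%). The mean line number in the other list, over listed positions, was 1.06 for single-line positions in either direction. It was 1.57 and 1.60 for positions on 2 lines and 2.77 and 2.52 for positions on 3 or more, from replicate 1 and replicate 2 respectively. Whether an unlisted position lacked reads or fell below the caller's cut-off cannot be told from the lists.

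**Figure D2:**
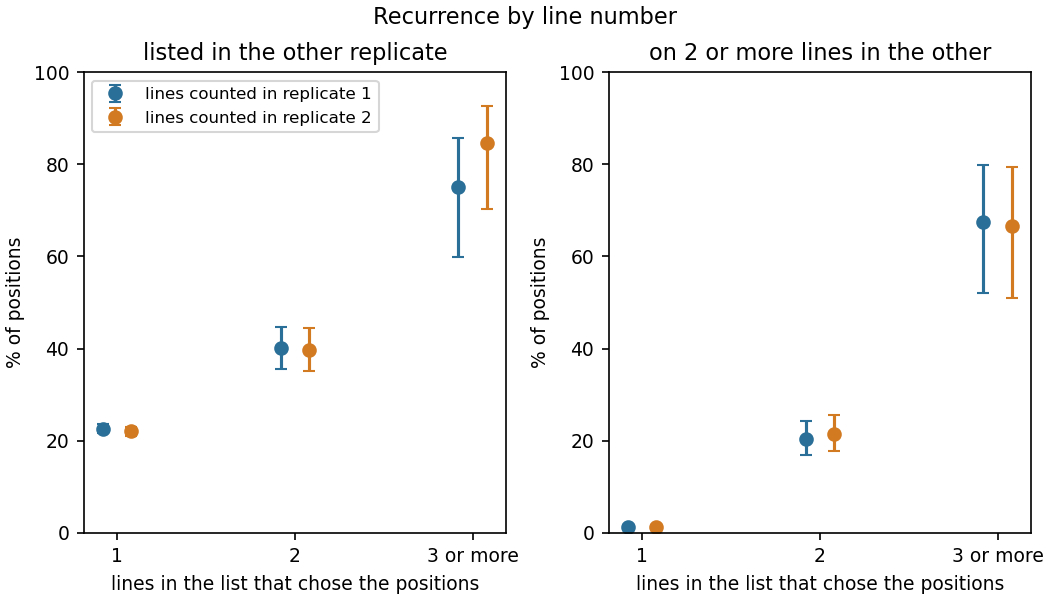
Share of positions listed in the other replicate (left) and on 2 or more lines there (right), in percent with 95% Wilson intervals, by the line number in the list that chose them. Blue points take the line number from replicate 1 and orange points from replicate 2, and in the right panel the shares go from 1.30% and 1.34% at 1 line to 67.5% and 66.7% at 3 or more.

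The positions with the highest line numbers are given one by one. In at least 1 list, 12 positions stood on 4 or more lines, spread over 9 chromosomes and 8 of them on the plus strand. All 12 were in both lists, 11 of them repeated in both. Over all positions, 24.0% of replicate 1 and 23.5% of replicate 2 were listed in the other replicate. The share repeated in the other replicate was 2.88% in either direction. Either list could choose these 12, so their recurrence is not an independent reading. The position on the plus strand of chromosome 6 from 126354652 to 126354656 was the only one on 5 lines in both replicates. The nearest single-line position on its strand lay 1087302 nt away in both lists, a distance that leaves out other repeated positions. On the minus strand of chromosome 1, the position from 93585056 to 93585060 had 5 lines in replicate 1 and 4 in replicate 2. Positions on the plus strand of chromosome 13, from 97408964 to 97408968, and of chromosome 14, from 51085758 to 51085762, each had 3 lines in replicate 1 and 5 in replicate 2. These positions had no other position within 1 kb on their strand in either list.

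A further 3 positions had 4 lines in replicate 1 and 3 in replicate 2. They lay on chromosome 6 plus strand from 4490738 to 4490742, on chromosome 9 plus strand from 20872566 to 20872570 and on chromosome 10 minus strand from 79720897 to 79720901. The minus-strand positions of chromosome 1 from 183107804 to 183107808 and of chromosome 12 from 106985590 to 106985594 had 3 lines in replicate 1 and 4 in replicate 2. The plus-strand positions of chromosome 9 from 108700017 to 108700021 and of chromosome 19 from 9052670 to 9052674 had 2 lines in replicate 1 and 4 in replicate 2. Of the 12, 10 stood alone within 1 kb in replicate 1 and 8 in replicate 2. Those with company included chromosome 6 from 4490738, which had single-line positions 136 nt upstream and 262 nt downstream in replicate 1, and 182 and 262 nt away in replicate 2. The position of chromosome 9 from 108700017 was likewise flanked on both sides, 25 and 655 nt away in replicate 1 and 126 and 503 nt away in replicate 2.

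The largest difference between the lists was 3 lines, reached by 17 positions. Of these, 10 had 3 lines in replicate 1 and 6 had 3 lines in replicate 2, each unlisted in the other replicate. Positions on 3 or more lines were absent from the other list in 25% of 40 cases from replicate 1 and 15.4% of 39 from replicate 2. Over all positions these shares were 76.0% and 76.5%. The last of the 12 positions, on the plus strand of the X chromosome from 108881983 to 108881987, had 4 lines in replicate 1 and 1 line in replicate 2. Minus-strand positions of chromosome 1 from 88247061 to 88247065 and of chromosome 2 from 103605378 to 103605382 had 3 lines in replicate 2 and were not listed in replicate 1, where the nearest single-line positions on the strand were 2043 and 10728 nt away.

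The chromosomes were examined next. The share of positions that were repeated ranged over the 19 autosomes and the X chromosome from 4.65% to 10.3% in replicate 1 (median 6.71%) and from 4.30% to 8.40% in replicate 2 (median 6.55%). Chromosome 14 was highest in replicate 1, with 22 of 213 positions (10.3%, 6.92 to 15.1%), but had 11 of 219 in replicate 2 (5.02%, 2.83 to 8.77%). Chromosome 18 also differed between the lists, at 9.94% (6.38 to 15.2%) and 4.93% (2.70 to 8.83%). Chromosome 12 was highest in replicate 2, at 8.40% (5.61 to 12.4%), and stood at 7.53% (4.82 to 11.6%) in replicate 1. Chromosome 19 was high in both, at 7.89% and 8.02%, and chromosome 3 was low in both, at 4.65% and 5.48%.

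The order of chromosomes in one replicate was not that in the other. Across the 20 chromosomes the 2 shares gave a Pearson's r of -0.27 and a Spearman's rho of -0.19, given as a description over chromosomes that differ in their number of positions. The 95% interval of a chromosome held the overall share of its list for 19 of 20 chromosomes in replicate 1, chromosome 14 being the exception, and for 20 of 20 in replicate 2. Chromosomes 6, 12 and 19 lay above the overall share in both lists, and 5 chromosomes lay below it in both. In absolute number, chromosome 2 held the most repeated positions of either list, 71, or 8.55% of them against 7.65% of all positions, and chromosome 11 followed with 67, or 8.07% against 8.78%. The X chromosome held 27 repeated positions, 3.25% of them against 3.28% of all positions, and 2 of the 27 were repeated in both lists. The Y chromosome and its unplaced contig held 1 repeated position each, both in replicate 1.

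**Figure D3:**
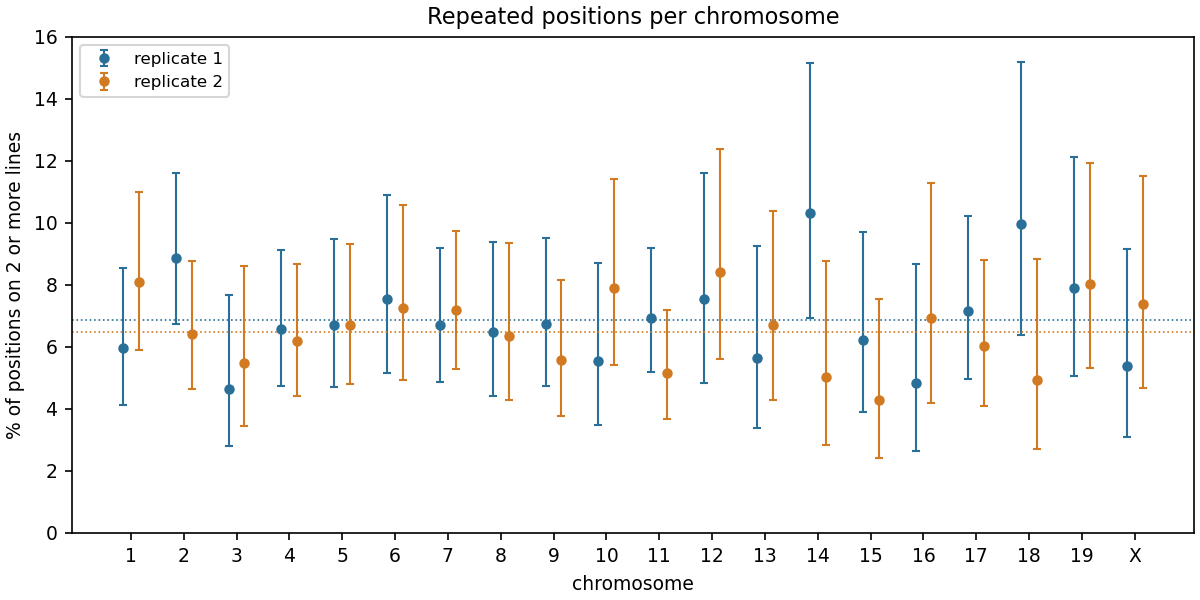
Share of the positions of each autosome and the X chromosome that stood on 2 or more lines, in percent with 95% Wilson intervals, for replicate 1 (blue) and replicate 2 (orange); dotted lines mark the share over each whole list, 6.87% and 6.47%. Chromosome 14 is at 10.3% in replicate 1 and 5.02% in replicate 2, and most intervals cross the dotted lines.

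Distance to the nearest single-line position on the same strand was measured for every repeated position within its own list, and likewise for every single-line position, itself left out. In replicate 1 the median was 4639 nt for repeated positions and 8539 nt for single-line positions. In replicate 2 the medians went the other way, 11873 nt against 10217 nt. The distances were very wide, with quartiles of 266 and 130598 nt for the repeated positions of replicate 1 and 338 and 237775 nt for those of replicate 2, so the medians do not separate the sets.

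Repeated positions had single-line neighbours within 1 kb about as often as other positions did, or slightly more often. Within 1 kb on the same strand, 33.2% of all positions of replicate 1 and 31.6% of all of replicate 2 had a single-line neighbour. Of the repeated positions, 183 of 482 had one in replicate 1 (38.0%, 33.7 to 42.4%) and 165 of 465 in replicate 2 (35.5%, 31.3 to 39.9%). The single-line positions gave 32.8% (31.7 to 34.0%) and 31.3% (30.2 to 32.4%). The difference was 5.12 percentage points in replicate 1 (95% Newcombe interval 0.748 to 9.68) and 4.21 in replicate 2 (-0.155 to 8.79), so the interval excluded 0 in replicate 1 and included it in replicate 2. At 5 kb the difference was 4.65 points in replicate 1 (0.0411 to 9.25) and -0.39 points in replicate 2 (-4.998 to 4.30).

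Of the 4 ranges measured, 10 nt was the only one at which the difference for all repeated positions excluded 0 in both lists. A single-line position lay within 10 nt of 23 of 482 repeated positions in replicate 1 (4.77%, 3.20 to 7.06%) and of 25 of 465 in replicate 2 (5.38%, 3.67 to 7.82%). Among single-line positions the shares were 2.40% (2.06 to 2.80%) and 2.55% (2.20 to 2.95%). The difference was 2.37 points (0.749 to 4.68) and 2.83 points (1.07 to 5.30). Within 100 nt the difference was 3.87 points in replicate 1 (0.6098 to 7.61) and 2.43 points in replicate 2 (-0.554 to 5.98).

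Positions on 2 lines, which were 91.7% and 91.6% of the repeated positions, accounted for 22 of the 23 with such a close neighbour in replicate 1 and 25 of the 25 in replicate 2. Taken alone, they exceeded single-line positions within 100 nt by 4.33 points in replicate 1 (0.913 to 8.28) and 3.26 points in replicate 2 (0.0824 to 7.04). Within 1 kb the excess was 6.52 points (1.93 to 11.3) and 4.87 points (0.312 to 9.67). At 5 kb it was 6.75 points (1.93 to 11.5) and 0.14 points (-4.66 to 5.04). Positions on 3 or more lines had a single-line position within 10 nt in 1 of 40 cases in replicate 1 and 0 of 39 in replicate 2, a count that allows up to 8.97% by the Wilson interval. Within 1 kb their shares were 22.5% (12.3 to 37.5%) and 28.2% (16.5 to 43.8%), both below the single-line shares, with differences of -10.3 points (-20.6 to 4.70) and -3.07 points (-14.8 to 12.5) whose intervals include 0. At 5 kb the share in replicate 1 was 27.5% (16.1 to 42.8%), and the difference of -18.5 points (-29.9 to -3.09) excluded 0. In replicate 2 the corresponding difference was -6.23 points (-19.9 to 9.45). The median distance for positions on 3 or more lines was 162664 nt in replicate 1 and 29325 nt in replicate 2. These sets are small, and the difference between positions on 2 lines and on 3 or more was not tested.

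**Figure D4:**
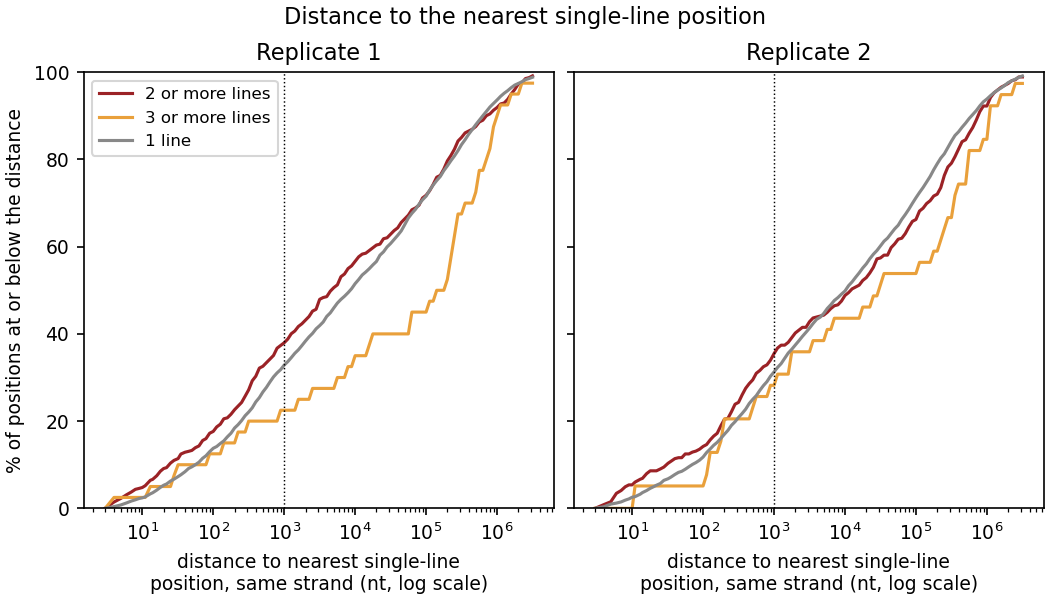
Cumulative share of positions, in percent, against the distance to the nearest single-line position on the same strand (nt, log axis) in replicate 1 (left) and replicate 2 (right), for positions on 2 or more lines (red), 3 or more lines (yellow) and 1 line (grey); the dotted line marks 1 kb. At 1 kb the red curve stands at 38.0% and 35.5%, the grey at 32.8% and 31.3%, and the yellow at 22.5% and 28.2%.

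Neighbours on the opposite strand were rare around repeated positions too. A position of either kind on the opposite strand lay within 1 kb of 6 repeated positions in replicate 1 (1.24%, 0.572 to 2.69%) and of 4 in replicate 2 (0.860%, 0.335 to 2.19%). Single-line positions gave 0.811% (0.620 to 1.06%) and 0.566% (0.412 to 0.776%). The intervals overlapped in both lists. Positions of the other replicate, the same base left out, lay within 1 kb on the same strand for 43.8% of the repeated positions of replicate 1 (39.4 to 48.2%) against 33.7% of its single-line positions (32.6 to 34.9%). The repeated and single-line positions of replicate 2 gave 35.3% (31.1 to 39.7%) and 32.2% (31.1 to 33.3%), with overlapping intervals.

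To place the repeated positions among their neighbours, neighbouring positions of a strand were put into 1 group as long as no gap exceeded 1 kb. The gaps are genomic and no transcript was assigned, so a group and its ends need not match those of 1 RNA. Most repeated positions were alone: 280 of 482 in replicate 1 (58.1%) and 296 of 465 in replicate 2 (63.7%), against 65.7% and 67.2% of single-line positions. The others, 202 in replicate 1 and 169 in replicate 2, fell into 183 and 163 groups of 2 or more positions. Only 18 of these groups in replicate 1 and 6 in replicate 2 held more than 1 repeated position. The share of positions that were repeated was also read by group size. In replicate 1 the share went from 6.12% of lone positions (5.46 to 6.85%) to 7.22% in groups of 2 (5.98 to 8.70%), 9.88% in groups of 3 (7.60 to 12.8%), 9.64% in groups of 4 (6.71 to 13.7%) and 9.24% in groups of 5 or more (6.23 to 13.5%). In replicate 2 the shares were 6.15% (5.51 to 6.86%), 6.32% (5.18 to 7.69%), 8.33% (6.25 to 11.0%), 9.05% (5.997 to 13.4%) and 7.88% (4.66 to 13.0%), so the largest groups did not have the highest share in either list. The intervals of lone positions and groups of 3 did not overlap in replicate 1 and did overlap in replicate 2.

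Within groups, repeated positions stood less often than single-line positions at the upstream end, that is the end that would be transcribed first on that strand. Every group has 1 position at each end, so over all positions in groups of 2 or more 40.2% were at the upstream end and 40.2% at the downstream end in replicate 1. In replicate 2 these shares were 41.7% and 41.7%. Of the repeated positions, 67 of 202 were at the upstream end in replicate 1 (33.2%, 27.0 to 39.9%) and 56 of 169 in replicate 2 (33.1%, 26.5 to 40.5%). Single-line positions were there in 40.8% (38.8 to 42.9%) and 42.3% (40.3 to 44.4%) of cases. The difference was -7.66 points (-14.1 to -0.613) in replicate 1 and -9.18 points (-16.2 to -1.50) in replicate 2, and both intervals excluded 0.

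The downstream end held 89 of the 202 repeated positions in replicate 1 (44.1%, 37.4 to 51.0%) and 80 of the 169 in replicate 2 (47.3%, 39.95 to 54.8%). The single-line shares there were 39.8% (37.8 to 41.9%) and 41.2% (39.2 to 43.3%), and the differences of 4.21 points (-2.77 to 11.4) and 6.11 points (-1.56 to 13.9) had intervals that include 0. If every place in its group were equally likely, 38.7% of the repeated positions of replicate 1 and 40.2% of those of replicate 2 would have been at a given end, against 40.3% and 41.8% of the single-line positions, since repeated positions lay in slightly larger groups. The intervals of both end shares held these equal-place values in both lists, so the upstream share was below that of single-line positions but not detectably below that of equal places. Interior places held 46 repeated positions (22.8%) in replicate 1 and 33 (19.5%) in replicate 2. The intervals do not take into account that positions share a group.

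**Figure D5:**
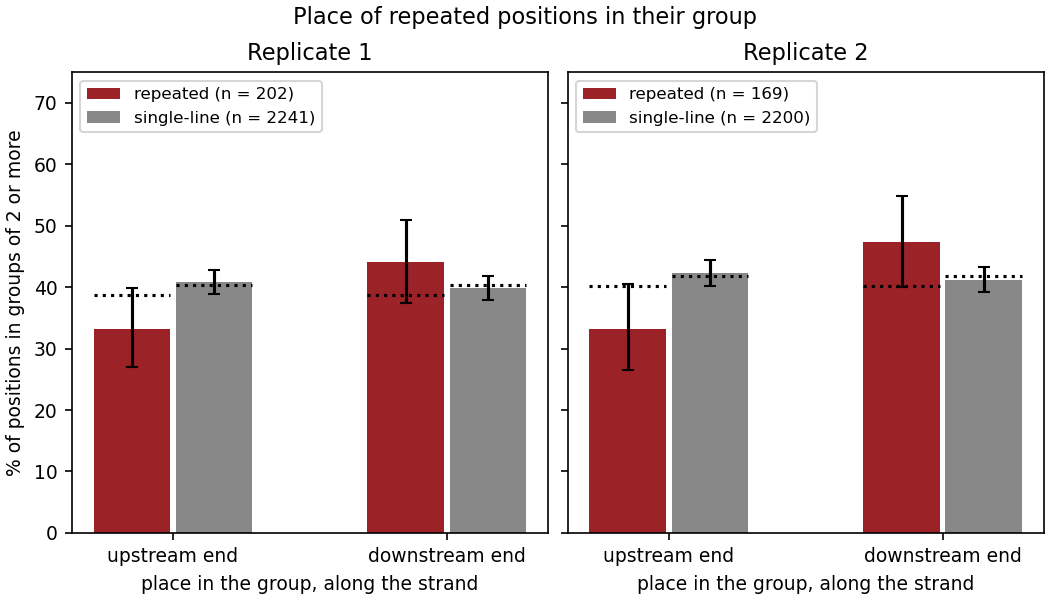
Share of positions at the upstream and the downstream end of their group, in percent of positions in groups of 2 or more (bars, with 95% Wilson intervals), for repeated (red) and single-line positions (grey) in replicate 1 (left) and replicate 2 (right). Dotted marks give the share if every place in a group were equally likely; the red bars are at 33.2% and 33.1% upstream and at 44.1% and 47.3% downstream.

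Groups of exactly 2 positions were then set apart from larger groups. In replicate 1, 85 such groups had 1 repeated and 1 single-line position, and the repeated position was the downstream one in 52 of them (61.2%, 50.5 to 70.8%). In replicate 2 it was the downstream one in 50 of 88 (56.8%, 46.4 to 66.7%), where the interval includes the 50% of equal places. By the gap between the 2 positions, the repeated one was downstream in 12 of 24 groups at 30 nt or less, 5 of 8 at 31 to 100 nt, 14 of 21 at 101 to 300 nt and 21 of 32 beyond 300 nt in replicate 1. The counts in replicate 2 were 14 of 24, 5 of 10, 17 of 26 and 14 of 28, so the lists did not share an order of the gap classes. In groups of 3 or more, 25.7% of the repeated positions of replicate 1 were upstream (18.2 to 35.0%) and 28.7% downstream, against 27.2% and 26.9% of single-line positions, so that list showed little difference there. In replicate 2 they were 20.8% upstream (13.2 to 31.1%) and 36.4% downstream, against 29.1% and 27.6%. Within 1 kb, 81 repeated positions of replicate 1 had a single-line position only upstream and 58 only downstream, with 80 and 54 in replicate 2. For single-line positions the sides are equal by construction, with 885 each in replicate 1 and 891 each in replicate 2. With neighbours on both sides included, 25.9% of repeated positions had one upstream (22.22 to 30.03%) and 21.2% downstream (17.75 to 25.03%) in replicate 1. The replicate 2 shares were 23.9% (20.22 to 27.95%) and 18.3% (15.03 to 22.05%). Both pairs of intervals overlapped, and the difference between the sides was not tested.

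The end of the group was also compared with recurrence in the other list. In replicate 1, repeated positions at the downstream end were listed by replicate 2 in 41 of 89 cases (46.1%, 36.1 to 56.4%), and those at the upstream end in 19 of 67 (28.4%, 19.0 to 40.1%). Repetition in replicate 2 was found for 24 of the 89 (27.0%, 18.8 to 37.0%) and for 6 of the 67 (8.96%, 4.17 to 18.2%). In replicate 2 the ends were alike, with 40 of 80 (50%, 39.3 to 60.7%) and 28 of 56 (50%, 37.3 to 62.7%) listed by replicate 1, and 22 of 80 (27.5%) and 13 of 56 (23.2%) repeated there. Single-line positions of replicate 1 were listed by the other list in 23.7% of cases at the downstream end (21.1 to 26.6%) and 19.6% at the upstream end (17.1 to 22.3%). Those of replicate 2 gave 25.2% (22.5 to 28.2%) and 20.2% (17.7 to 22.9%), so a lower listed share at the upstream end was not particular to repeated positions. Single-line positions of replicate 1 were repeated in the other list in 1.46% of downstream and 1.53% of upstream cases. For those of replicate 2 the shares were 1.65% and 1.61%. Lone repeated positions were listed by the other replicate in 129 of 280 cases (46.1%) in replicate 1 and 118 of 296 (39.9%) in replicate 2. Lone single-line positions were listed there in 983 of 4296 cases (22.9%) and 966 of 4517 (21.4%).

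The lists share positions, so the repeated positions that the other replicate did not list were taken by themselves. In replicate 1 these 124 positions were at the upstream end in 48 cases and at the downstream end in 48. In replicate 2 the 85 positions were upstream in 28 cases and downstream in 40. In replicate 1, the 78 positions that replicate 2 also listed had 19 upstream (24.4%, 16.2 to 34.9%) and 41 downstream (52.6%, 41.6 to 63.3%). For these 78 the equal-place value was 39.1%. The interval of the 124 positions, 30.6 to 47.5% at either end, overlapped both, and the difference between the 78 and the 124 was not tested. The matching 84 positions of replicate 2 had 28 upstream (33.3%) and 40 downstream (47.6%). With groups built from both lists together, 449 repeated positions lay in groups of 2 or more, with 140 upstream (31.2%, 27.07 to 35.61%) and 177 downstream (39.4%, 35.0 to 44.0%). Equal places would give 35.6% at each end, and single-line positions were upstream in 37.7% and downstream in 37.0% of cases. Of the 54 among them that were repeated in both lists, 12 were upstream (22.2%, 13.2 to 34.9%) and 28 downstream (51.9%, 38.9 to 64.6%), against 37.4% for equal places. The divisions of this paragraph were chosen after the end shares were seen.

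Groups with several repeated positions were counted with both lists together. Of the 830 repeated positions, 449 lay in groups of 2 or more and the others were alone. Each lone position was counted as a group of its own, which cannot hold several. On that count 8075 groups held no repeated position, 747 held 1, 34 held 2 and 5 held 3, the highest number. Of those 5, the one with the most lines was the plus-strand group of chromosome 17 from 23952380 to 23957785, with 27 positions, 19 of them in replicate 1 and 11 in replicate 2. Its repeated positions began at 23954614, with 2 lines in replicate 1, at 23955402, with 2 lines in replicate 2, and at 23957697, with 3 lines in replicate 1. None of these 3 was listed by the other replicate, and most single-line positions of the group were in 1 list only too.

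The second group lay on the plus strand of chromosome 6 from 4487895 to 4491246 and had 9 positions, 8 in replicate 1 and 4 in replicate 2. It contained the position beginning at 4490738, with 4 and 3 lines, as the seventh from the upstream end. The positions beginning at 4488620 and 4488788 had 2 lines each in replicate 1, and replicate 2 listed only the first of these, on 1 line. The third group lay on the minus strand of chromosome 10 from 5988713 to 5993397, with 15 positions. Its most downstream position, beginning at 5988713, had 2 lines in replicate 1, and the positions beginning at 5991546 and 5992887 had 2 lines in replicate 2. Each of these was in 1 list only, as were most single-line positions of the group. Over the whole lists, 64.8% of the repeated positions and 86.5% of all positions were in 1 list only. The lack of shared repeated positions in this group and in that of chromosome 17 is therefore not particular to repetition.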

How the data were processed

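The miCLIP lists of 2 control testis libraries were used as deposited. Per the submitters' processing notes, CASAVA and BWA 0.7.10 were used with mm9. For the caller of positions, its cut-offs and what a repeated line stands for, the entry is: not given in the sources used here. Such steps decide which positions are listed and how often. The deposited name and score fields hold an asterisk throughout. Lines were counted per chromosome, start and strand, and coordinates are 1-based. Shares carry 95% Wilson intervals and differences 95% Newcombe intervals. With 1 group of 2 replicates, no test across samples was possible.

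Named positions were those on 4 or more lines, the 3 with the largest difference in line number and the 3 groups with the most repeated positions, ties going to more lines and then to chromosome and start. The positions, comparisons and alternatives were chosen with earlier results of these data known. The software was pandas 2.3.3 with NumPy 2.4.6 under Python 3.11.15, SciPy 1.17.1 and matplotlib 3.10.9, and the counting code was tested on simulated lists.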

Additional observations from a re-analysis of the deposited data

How the results depend on the processing

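Depth per position is unknown and no gene or sequence was assigned, so nothing here separates strength of a call from its place in a transcript. Of 40 alternative values, 19 stayed close to the reported one and 21 moved. A value moved if it changed by over 1.5 times for a count or by over the SD of the 2 replicates for a share. Leaving out 1 replicate cannot move a share, or a difference of shares, beyond that SD. Those values therefore stayed close by construction and say nothing about stability. The number that reversed was 0, but only the downstream minus upstream difference has a sign that could reverse. With 2 replicates the SD is a narrow limit, above all for the upstream share, where the replicates nearly coincided. With 3 or more lines as the minimum, the 830 positions became 62. The share with a single-line neighbour within 1 kb went from 36.7% to 25.4%, the downstream share from 45.7% to 38.4%, the upstream share from 33.2% to 19.2%, their difference from 12.5 to 19.2 points and the share repeated in the other list from 24.7% to 67.1%; the end shares then rest on 9 and 11 positions. The single replicates alone gave 465 to 482 repeated positions, since each list holds only its own. The neighbour share was 15.9% within 100 nt, 47.5% within 5 kb and 50.9% with the single-line positions of both lists, which offer more neighbours by construction. The downstream share was 49.4% with gaps of at most 500 nt and 41.0% with groups of both lists. The upstream share was 35.3% with gaps of at most 500 nt, 33.6% with at most 2 kb, 33.8% in groups with exactly 1 repeated position and 30.2% with groups of both lists. The downstream minus upstream difference, an alternative set added after seeing the data, was 9.96 points with gaps of at most 2 kb and 7.06 among repeated positions absent from the other list (0 in replicate 1 and 14.1 in replicate 2). Among positions in both lists only, 57.2% of repeated positions were repeated in the other list, and 12.1% of positions were repeated against 6.67% of all. No paired analysis was possible because the design has a single group. Alternatives with genes or sequence were not run.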
